A study of Mus musculus with 12 samples.

Results

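Messenger RNA of the genes that make up the myostatin, activin and follistatin axis was examined in the tibialis anterior, a fast hindlimb muscle. The genes were chosen by symbol, with earlier results of these data known. Mstn, Gdf11, Inhba and Inhbb encode ligands or ligand subunits. Fst, Fstl3 and Fstl1 encode follistatin and proteins related to it, and Acvr2a, Acvr2b and Acvr1b encode receptors. All 10 symbols were found among the 24421 entries of the count table, and all 10 passed the filter on low counts, as 10 of 13937 genes tested. The 12 libraries came from male mice aged 4 months, 6 of the strain C57Bl/6 (WT) and 6 of the strain mdx/mTR. The mdx allele disrupts Dmd, the dystrophin gene, and mTR is the usual name of the gene for the RNA part of mouse telomerase. The telomerase generation, the breeding of the controls and the source of each allele were not given in the sources used here, so the dystrophin and telomerase parts of the genotype cannot be told apart. The labels number the libraries without stating that each came from its own animal, and the p-values measure the spread between libraries.

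Myostatin is a secreted factor of the transforming growth factor beta family, made mainly by skeletal muscle fibres and known for restraining muscle growth. Myostatin, its close relative GDF11 and the activins bind the type II receptors ACVR2A and ACVR2B, which recruit a type I receptor such as ACVR1B, and the receptors phosphorylate the transcription factors SMAD2 and SMAD3. Follistatin and FSTL3 bind these ligands outside the cell and keep them from their receptors.

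The 6 WT libraries held 36903560 to 40981012 counts and the 6 mdx/mTR libraries 35136327 to 60330410. Levels are given in CPM, counts divided by a library size that was scaled by the trimmed mean of M-values (TMM), with factors of 0.929 to 0.971 for WT libraries and 0.988 to 1.16 for mdx/mTR libraries. Dmd itself was at 237 ± 6.89 CPM in WT against 46.8 ± 7.20 CPM in mdx/mTR (SD, n = 6 libraries per group), without overlap. The summed level of 7 skeletal muscle fibre markers ran from 173712 to 203471 CPM in the WT libraries and from 138011 to 191298 CPM in those of mdx/mTR, and none of the 7 was at 0 in any library.

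The sequences of the genes bear on how far their counts can be told apart. Mstn (chr1:53061640-53068079, plus strand, 3 exons) and Gdf11 (chr10:128882295-128891718, minus strand, 3 exons) encode ligands whose carboxyl-terminal, mature parts are very alike. Over the last 330 bases of their coding sequences, which hold that part and the stop codon, 74.8% of positions were identical, but the longest identical run was 11 bases. The first 60 bases of this window are shown 5′ to 3′ because they hold such a run, with the 14 positions that differ in capitals:
Mstn: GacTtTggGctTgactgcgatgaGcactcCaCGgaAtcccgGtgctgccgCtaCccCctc
Gdf11: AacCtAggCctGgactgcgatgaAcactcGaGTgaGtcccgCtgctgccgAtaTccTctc
No stretch of 50 bases in the longest coding transcript of Mstn or Gdf11 was found in transcripts of other genes (GENCODE M21, build GRCm38), and of the 10 genes only Inhba shared any, 0.347% of its stretches.

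The 250 bases before the start of a gene that fell, Mstn, and of a pair that rose, Fstl3 and Inhbb, are shown to compare their promoters. They are from RefSeq on GRCm38.p6, printed 5′ to 3′ in the direction of the gene, with each E-box (CANNTG, the letters bound by the MyoD family of muscle transcription factors, the same on both strands) in capitals. Their windows are chr1:53061390-53061639 (plus strand) for Mstn, chr10:79777024-79777273 (plus strand) for Fstl3 and chr1:119422249-119422498 (minus strand) for Inhbb:
Mstn: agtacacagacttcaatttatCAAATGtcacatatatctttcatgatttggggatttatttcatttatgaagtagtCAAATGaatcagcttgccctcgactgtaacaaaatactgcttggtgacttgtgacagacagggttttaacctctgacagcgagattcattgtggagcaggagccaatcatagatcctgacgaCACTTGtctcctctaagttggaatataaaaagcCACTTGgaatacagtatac
Fstl3: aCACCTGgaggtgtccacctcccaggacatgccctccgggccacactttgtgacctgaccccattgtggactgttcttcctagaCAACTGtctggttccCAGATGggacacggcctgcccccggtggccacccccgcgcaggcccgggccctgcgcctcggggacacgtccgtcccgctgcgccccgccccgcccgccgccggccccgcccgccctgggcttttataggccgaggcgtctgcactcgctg
Inhbb: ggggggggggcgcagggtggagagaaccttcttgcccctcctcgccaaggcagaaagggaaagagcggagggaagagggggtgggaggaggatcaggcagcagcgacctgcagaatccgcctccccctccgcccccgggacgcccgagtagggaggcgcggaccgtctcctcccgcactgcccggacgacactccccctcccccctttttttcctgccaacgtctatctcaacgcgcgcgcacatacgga
RefSeq promoters were found for 9 of the 10 genes. Mstn had 4 E-box matches, which begin at positions -229, -174, -52 and -19 from the start, Fstl3 had 3 and Inhbb 0, and 66.2% of the 32851 promoters in the table had at least 1. The letters TATAAA, the core of a TATA box, were searched on both strands and occurred in 12.4% of all promoters. They lay at position -29 in both Mstn and Fstl3. In Mstn they were on the strand of the gene, and in Fstl3 on the other strand, so the printed Fstl3 window reads TTTATA there. CAGAC, searched on both strands as letters bound by SMAD proteins, was found 2 times each in Mstn and Fstl3, 0 times in Inhbb and in 42.2% of all promoters. The Mstn window was 38.4% G and C with 3 CpG dinucleotides, the Inhbb window 68.0% with 21, and the median over all promoters 52.4% with 6. Base composition did not follow the direction of change: the window of Inhba, which rose, was 43.2% with 3 CpG, and that of Acvr2a, which fell, was 82.0% with 49 and had 0 E-box matches. Such matches are descriptions of letters and not of binding.

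Of the 10 genes, 5 were higher in mdx/mTR (Fst, Fstl1, Fstl3, Inhba and Inhbb) and 2 lower (Mstn and Acvr2a), by edgeR's quasi-likelihood test with a Benjamini-Hochberg adjusted p below 0.05 over all tested genes. Over all 13937 genes, 25.0% were called higher and 23.4% lower, 48.3% in all, so a call alone was common among all genes. The libraries of the groups did not overlap for 6 of the 10 genes, against 25.2% of all genes: 4 lay wholly above WT (12.6% of all genes) and 2 wholly below (12.6%). The median log2 fold change was 0.62 over the 10 genes and 0.01 over all genes. With library totals in place of TMM factors, 7 of the 10 were called higher and 1 lower. That scaling moved the median of all genes to 0.17 and the share of calls that were higher from 51.6% to 78.2%. Over all genes, it called 5590 higher and 1560 lower, in place of 3479 and 3257 with TMM. All changes given here are relative to TMM. In whole muscle, fewer cells of a type and less RNA per cell cannot be told apart.

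**Figure D1:**
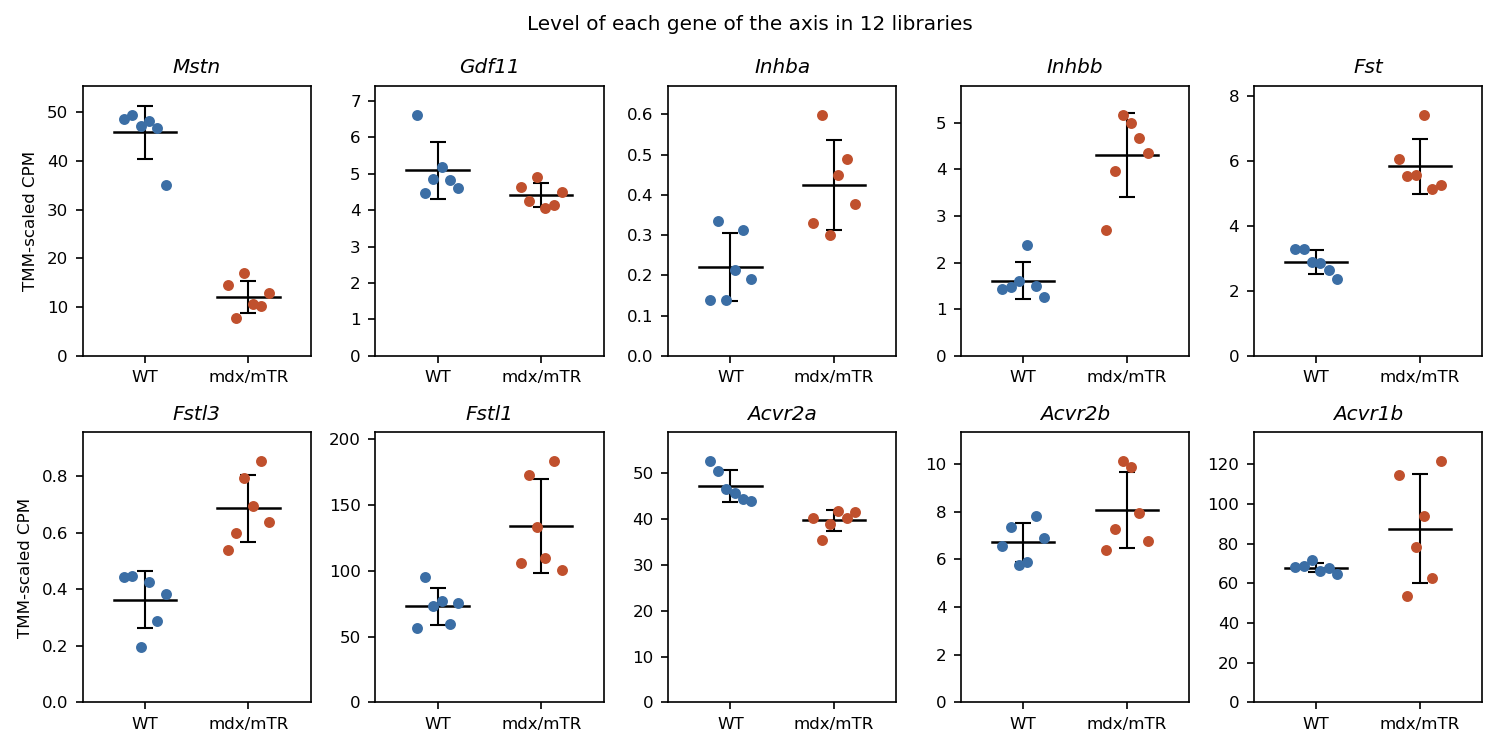
TMM-scaled CPM (vertical axes, from 0) of the 10 genes in WT (blue) and mdx/mTR (orange). Each point is 1 library, spread sideways by replicate number only, the long bar is the group mean and the error bar the SD of 6 libraries; the Mstn points of mdx/mTR (7.73 to 16.9 CPM) lie below those of WT (35.01 to 49.4 CPM), and the Acvr1b points of mdx/mTR lie on both sides of the WT points.

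Among the ligand genes, that of myostatin fell. Mstn ran from 35.01 through a median of 47.7 to 49.4 CPM in WT, and from 7.73 through 11.8 to 16.9 CPM in mdx/mTR. The groups did not overlap, and WT replicate 6, at 35.01 CPM, lay apart from the other WT libraries (46.6 to 49.4 CPM). The means were 45.8 ± 5.39 CPM and 12.1 ± 3.30 CPM (SD, n = 6 libraries per group), so mdx/mTR held 26.5% of the WT level. The log2 fold change was -1.92 ± 0.16 (SE; edgeR adjusted p 1.1e-06), -1.99 without WT replicate 6. It was the 54th lowest of the 13937 log2 fold changes. Of all genes, 1.94% were called lower by at least 2-fold and 7.24% higher, and of the 10 genes 1 was in the first class (Mstn) and 2 were in the second (Inhbb and Fst). The 7 fibre markers had a median log2 fold change of -0.13. Of these 7, 1 was called lower (Myh4, -0.62) and 1 higher (Mylpf, 0.42), against 23.4% and 25.0% of all tested genes. The part of the fibres in the fall of Mstn was not tested.

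Gdf11, the close relative of Mstn, ran from 4.47 through 4.84 to 6.61 CPM in WT and from 4.05 through 4.38 to 4.92 CPM in mdx/mTR. The groups overlapped, and the high end of WT was replicate 1 alone. Its log2 fold change of -0.20 ± 0.10 (SE) did not pass (edgeR adjusted p 0.109). As counts in the same library, which need no scaling, Gdf11 was 9.07% to 13.6% of Mstn in WT, and 29.1% to 55.0% of it in mdx/mTR. The mean log2 ratio of Gdf11 to Mstn differed by 1.76, a 3.38-fold difference (two-sided exact permutation p 0.00216, the smallest 6 against 6 allows; adjusted p 0.00361 over the 5 ratios compared). The fall of Mstn enters this ratio and those of Fst and Fstl3 to Mstn below, so their tests are not independent of it.

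The activin subunit genes rose. Inhbb (chr1:119415465-119422248, minus strand, 2 exons), which encodes the subunit of activin B, ran from 1.26 through 1.48 to 2.39 CPM in WT and from 2.70 through 4.51 to 5.17 CPM in mdx/mTR. The lowest mdx/mTR library, replicate 1, still lay above the highest WT library, replicate 4. Its log2 fold change of 1.41 ± 0.18 (SE; edgeR adjusted p 3.6e-05), 2.67-fold in the means, was the highest of the 10 genes. Inhba (chr13:16011851-16031621, plus strand, 5 exons), the subunit of activin A, was scarce, with 5 to 12 counts in a WT library and 11 to 39 in an mdx/mTR library. It ran from 0.139 through 0.202 to 0.335 CPM in WT and from 0.301 through 0.413 to 0.598 CPM in mdx/mTR, where 3 counts, the limit set for a count of 0, correspond to 0.0460 to 0.0837 CPM. The groups overlapped at mdx/mTR replicates 1 and 3. The log2 fold change of Inhba was 0.94 ± 0.27 (SE; edgeR adjusted p 0.0117), and 1.01 (edgeR adjusted p 0.0157) with every library thinned to the smallest total. The log2 ratio of Inhba to Inhbb was -2.83 ± 0.605 in WT against -3.32 ± 0.458 in mdx/mTR (SD, n = 6 libraries per group; exact permutation p 0.145, adjusted p 0.145). The difference of -0.49 became -0.77 (exact permutation, adjusted p 0.0130) with 5 in place of 0.5 added to each count.

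The follistatin gene rose while Mstn fell. Fst (chr13:114452290-114458951, minus strand, 6 exons) ran from 2.35 through 2.88 to 3.29 CPM in WT and from 5.13 through 5.55 to 7.42 CPM in mdx/mTR. All mdx/mTR libraries lay above all WT libraries, with replicate 4 the highest. The log2 fold change was 1.01 ± 0.11 (SE; edgeR adjusted p 1.3e-05), a 2.02-fold difference of the means. Within a library, Fst counts were 5.68% to 6.77% of Mstn counts in WT, and 33.0% to 71.5% of them in mdx/mTR. The mean log2 ratio of Fst to Mstn went from -3.98 ± 0.107 to -1.02 ± 0.445 (SD, n = 6 libraries per group), a 7.79-fold difference (exact permutation p 0.00216, adjusted p 0.00361). The WT ratios lay close together, including WT replicate 6, whose Fst (2.35 CPM) was the lowest along with its Mstn.

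Fstl3 (chr10:79777272-79782630, plus strand, 5 exons), whose protein also binds activins and myostatin, ran from 0.194 through 0.404 to 0.447 CPM in WT and from 0.540 through 0.666 to 0.852 CPM in mdx/mTR. The groups did not overlap. The log2 fold change was 0.90 ± 0.22 (SE; edgeR adjusted p 0.0037), from 7 to 16 counts in a WT library and 29 to 40 in an mdx/mTR library. The mean log2 ratio of Fstl3 to Mstn, which holds the fall of Mstn, rose by 2.87, 7.33-fold (exact permutation p 0.00216, adjusted p 0.00361).

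Fstl1 (chr16:37776873-37836514, plus strand, 11 exons) encodes a secreted glycoprotein with a follistatin-like domain, abundant in connective tissue cells. It ran from 56.8 through 74.7 to 95.4 CPM in WT and from 101 through 121 to 183 CPM in mdx/mTR. The groups did not overlap, and mdx/mTR replicates 2 and 5 were the high ones, at 173 and 183 CPM against 101 to 133 CPM in the others. The log2 fold change was 0.88 ± 0.16 (SE; edgeR adjusted p 7.1e-04). Markers of fibroblasts and fibro-adipogenic progenitors moved with it: 6 of 7 were called higher (25.0% of all tested genes) and 0 of 7 lower (23.4%). Their median log2 fold change was 0.94. Their summed level ran from 903 to 1632 CPM in the WT libraries and from 2267 to 4483 CPM in those of mdx/mTR, with replicates 2 (4259 CPM) and 5 (4483 CPM) again the highest. The part of these cells in the level of Fstl1 was not tested.

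Fst, Fstl3, Inhba and Inhbb were higher in mdx/mTR, and so were markers of some other cells. Of all tested genes, 25.0% were called higher and 23.4% lower. All 6 macrophage markers were called higher, and their sum ran from 70.0 to 122 CPM in the WT libraries and from 210 to 603 CPM in those of mdx/mTR. Of 5 satellite cell and myoblast markers, 3 were called higher (Myf5, Myod1 and Myog) and 1 lower (Cdh15), and their sum ran from 49.7 to 66.1 CPM and from 58.9 to 110 CPM. All 3 tendon cell markers were called higher, with sums of 6.24 to 14.0 CPM and 12.03 to 17.7 CPM. Markers of endothelial cells (3 of 5 lower), Schwann cells (4 of 4 lower) and smooth muscle cells and pericytes (1 of 4 higher, 2 lower) did not rise as lists, with sums of 434 to 574 and 342 to 444 CPM, 41.1 to 52.7 and 21.8 to 33.5 CPM, and 249 to 360 and 259 to 292 CPM. Of 3 tested adipocyte markers 0 were called, with sums of 6.97 to 10.9 CPM and 4.62 to 15.4 CPM. No marker list had a gene at 0 in all libraries. Within mdx/mTR, replicate 5 had the highest macrophage sum (603 CPM), the highest Fstl3 (0.852 CPM) and the lowest Fst (5.13 CPM). Inhbb was highest in replicate 3 (5.17 CPM) and Inhba in replicate 2 (0.598 CPM). The part of these cells in the rises was not tested.

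Changes among the receptors were smaller. Acvr2a (chr2:48814109-48903269, plus strand, 11 exons), a type II receptor for activins and myostatin, ran from 43.9 through 46.0 to 52.5 CPM in WT and from 35.3 through 40.2 to 41.8 CPM in mdx/mTR, without overlap. Its log2 fold change of -0.25 ± 0.06 (SE; edgeR adjusted p 0.0024) was -0.10 (edgeR adjusted p 0.186) with library totals alone. An exon of Orc4 on the other strand overlaps Acvr2a. The strand handling of the counts was not given in the sources used here, and Orc4 was at 20.9 ± 1.42 CPM in WT against 19.4 ± 0.650 CPM in mdx/mTR (edgeR adjusted p 0.108). Antisense genes also overlap exons of Fstl3 (Prss57, 0 to 8 counts in a library) and Fst (Gm47040, with no entry used here).

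Acvr2b (chr9:119402118-119434995, plus strand, 11 exons), the other type II receptor, ran from 5.77 through 6.72 to 7.81 CPM in WT and from 6.38 through 7.63 to 10.1 CPM in mdx/mTR. The groups overlapped, with mdx/mTR replicates 3 and 4 above all WT libraries by the widest margin. Its log2 fold change of 0.26 ± 0.13 (SE) did not pass (edgeR adjusted p 0.1005), but did without mdx/mTR replicate 1 (0.32, edgeR adjusted p 0.0446) and with library totals alone (0.42, edgeR adjusted p 0.0205). As a ratio of counts within a library, not divided by transcript length, Acvr2b was 12.4% to 17.6% of Acvr2a in WT, and 15.9% to 26.1% of it in mdx/mTR. The transcripts used for length were 3175 bases for Acvr2b and 5686 bases for Acvr2a. The mean log2 ratio of Acvr2b to Acvr2a was 0.50 higher, 1.42-fold (exact permutation p 0.00866, adjusted p 0.0108), although the groups overlapped.

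Acvr1b (chr15:101174067-101213684, plus strand, 9 exons) encodes ALK4, a type I receptor of activins and myostatin. It ran from 64.8 through 67.9 to 71.5 CPM in WT and from 53.6 through 86.0 to 121 CPM in mdx/mTR. The WT libraries lay close together, whereas 2 mdx/mTR libraries lay below all of them (replicate 2 at 53.6 CPM and replicate 5 at 62.8 CPM) and 4 above, replicates 1 and 6 at 114 and 121 CPM. The SD was 2.29 CPM among WT and 27.4 CPM among mdx/mTR libraries. The log2 fold change of 0.36 ± 0.17 (SE) did not pass (edgeR adjusted p 0.0833), and passed without mdx/mTR replicate 2 (0.47, edgeR adjusted p 0.0123), without mdx/mTR replicate 5 (0.44, edgeR adjusted p 0.0358) and with library totals alone (0.50, edgeR adjusted p 0.0104). Without mdx/mTR replicate 6 it was 0.25. The summed fibre markers of mdx/mTR were lowest in replicates 5 (138011 CPM) and 2 (144800 CPM) and highest in replicates 1 (191298 CPM) and 6 (181362 CPM), and their part in the spread of Acvr1b was not tested.

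**Figure D2:**
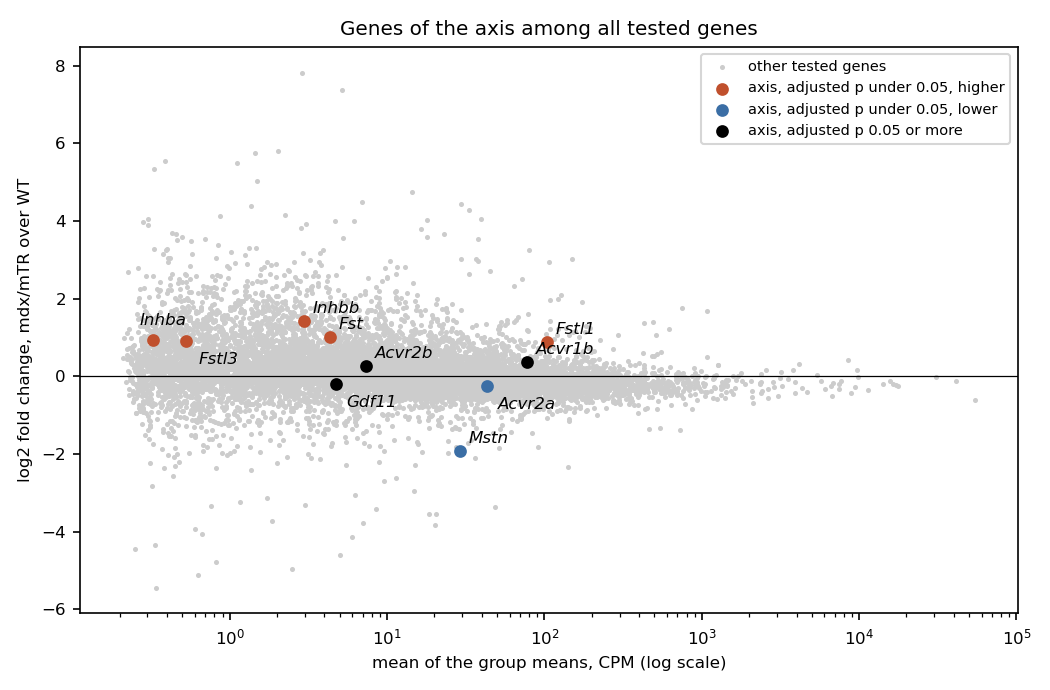
Log2 fold change (vertical axis; positive where mdx/mTR was higher) against the mean of the group means in CPM (horizontal axis, log scale) for all 13937 tested genes (grey). Genes of the axis are coloured by the edgeR call; Mstn (-1.92) lies near the lower edge of the grey points, while Inhbb (1.41) and Fst (1.01) lie in the upper part of it.

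Levels of different genes were compared per kilobase of the longest coding transcript. In WT, Fstl1 was highest at 19.3 ± 3.66 CPM per kilobase, followed by Mstn at 16.9 ± 1.99 and Acvr1b at 15.4 ± 0.518 (SD, n = 6 libraries per group), and the ranges of these neighbours overlapped. Acvr2a (8.30), Acvr2b (2.11) and Gdf11 (1.25) followed without overlap of neighbours, Gdf11 and Fst (1.02) overlapped, and Inhbb (0.379), Fstl3 (0.186) and Inhba (0.0347 CPM per kilobase) came last without overlap. In mdx/mTR, Mstn stood 4th at 4.49 ± 1.22 CPM per kilobase, below Fstl1 (35.5 ± 9.46), Acvr1b (19.8 ± 6.21) and Acvr2a (6.97 ± 0.418), with a range that overlapped those of Acvr2a above it and Acvr2b (2.54) below it. Fst (2.06 ± 0.297 CPM per kilobase) stood above Gdf11 (1.09 ± 0.0811) there, without overlap, and Inhbb (1.01 ± 0.211 CPM per kilobase) overlapped Gdf11. Inhba was last in both groups, at 0.0664 CPM per kilobase in mdx/mTR.

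**Figure D3:**
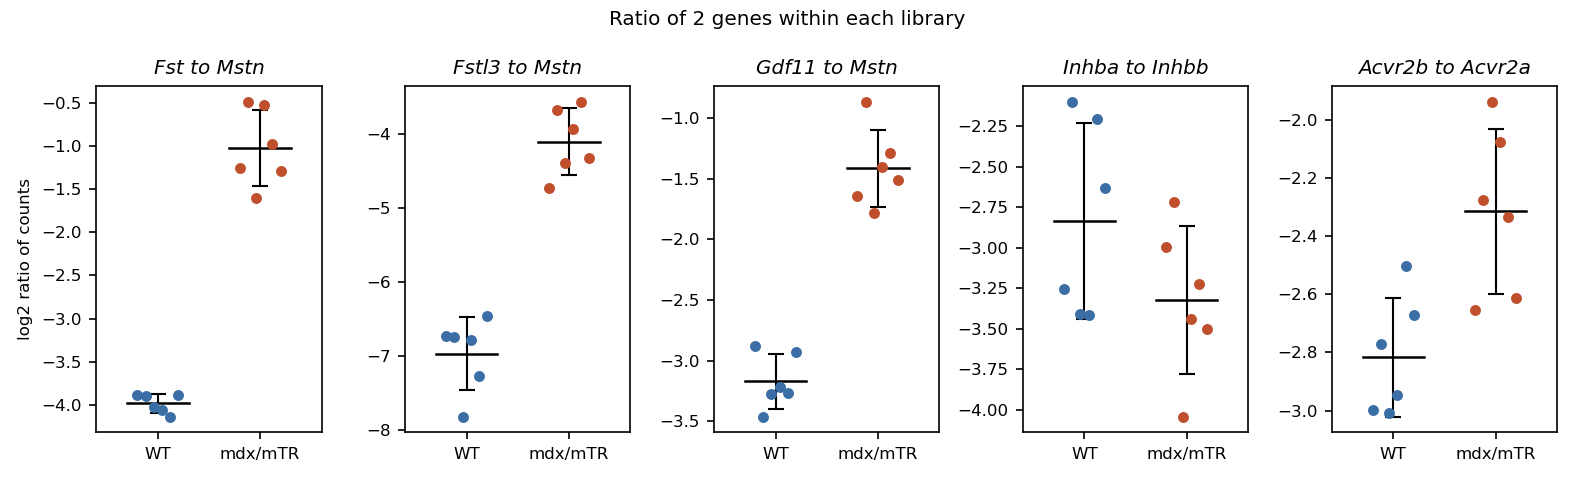
Log2 ratio of the counts of 2 genes within 1 library (vertical axes, with 0.5 added to each count; the axes do not start at 0) in WT (blue) and mdx/mTR (orange). Points are libraries, bars the mean and SD of 6; the ratios of Fst, Fstl3 and Gdf11 to Mstn do not overlap between the groups, those of Inhba to Inhbb and of Acvr2b to Acvr2a do.

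The genes whose profile over the 12 libraries was most like that of Mstn, by the root mean square difference of centred log2(CPM + 0.5), were Efcab6 (0.211), 2310065F04Rik (0.219) and Cyp4f39 (0.222), where the median over the 12199 genes compared was 0.998. The measure spans both groups, so a gene without a change between them lies far from Mstn by that alone. Likeness among the libraries of 1 group was not measured. Efcab6 went from 14.6 ± 2.83 to 3.21 ± 0.800 CPM, 2310065F04Rik from 142 ± 21.1 to 40.0 ± 16.5 CPM and Cyp4f39 from 58.5 ± 7.15 to 13.8 ± 5.88 CPM (SD, n = 6 libraries per group).

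The other genes of the pathway were read from 4 lists. Each list is set against all tested genes, of which 25.0% were called higher and 23.4% lower. Of 11 tested genes listed as extracellular regulators, 4 were called higher and 2 lower (Wfikkn2 and Tcap), with a median log2 fold change of 0.37. Tcap encodes a protein of the sarcomere's Z-disc, inside the fibre, so 1 of the 2 lower genes is not extracellular. With library totals alone, the list had 8 genes called higher and 1 lower (Wfikkn2). Of all 13937 tested genes, 5590 were then called higher and 1560 lower. With upper quartile scaling the list had 6 higher and 2 lower, and all tested genes had 3955 higher and 2699 lower. Leaving out 1 library gave 3 to 5 genes of the list higher and 2 lower. Wfikkn2, which encodes a secreted protein that binds myostatin and GDF11, went from 21.2 ± 2.38 CPM in WT to 10.3 ± 2.33 CPM in mdx/mTR (SD, n = 6 libraries per group; -1.04 ± 0.14 SE, edgeR adjusted p 4.4e-05), without overlap. Dcn, which encodes the matrix proteoglycan decorin and is also one of the fibroblast markers, went from 336 ± 27.4 to 506 ± 32.9 CPM (0.59 ± 0.06 SE, edgeR adjusted p 1.0e-05). The others called were Bmp1 (0.60), a protease of the tolloid family that frees myostatin from its propeptide, Pcsk5 (0.58), a proprotein convertase, Inha (0.53), whose product joins activin subunits to form inhibins, and Tcap (-0.37). Inha was not called in 9 of the 12 fits that left out 1 library, and Tcap was not called with library totals alone.

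Of 6 tested other receptors and co-receptors, 0 were called higher and 1 lower, against 25.0% and 23.4% of all tested genes. Their median log2 fold change was -0.09, and positive (0.07) with library totals alone. The one called was Bmpr2, a type II receptor of bone morphogenetic proteins, from 158 ± 8.34 to 137 ± 12.2 CPM (SD, n = 6 libraries per group; -0.21 ± 0.06 SE, edgeR adjusted p 0.0128), which did not pass with library totals alone (-0.05, edgeR adjusted p 0.466). Tgfbr1, the type I receptor ALK5, had a log2 fold change of -0.11 ± 0.05 (SE; edgeR adjusted p 0.0937), which was 0.04 with library totals alone. Without WT replicate 2, whose 40.6 CPM lay below the 47.8 to 51.0 CPM of the other WT libraries, Tgfbr1 passed (-0.16, edgeR adjusted p 0.0087), and the list then had 2 genes called.

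Of 11 SMAD proteins and their regulators, 1 was called higher (Skil, 0.29) and 7 lower, against 25.0% and 23.4% of all tested genes. Among the 7 were Smad2 (-0.19), Smad3 (-0.28) and Smad4 (-0.28), and the median log2 fold change of the list was -0.19. Ppm1a, a phosphatase that acts on SMAD2 and SMAD3, went from 239 ± 12.9 to 180 ± 17.8 CPM (SD, n = 6 libraries per group; -0.41 ± 0.07 SE, edgeR adjusted p 2.4e-04). Smurf2, a ubiquitin ligase that acts on the pathway, went from 47.9 ± 2.58 to 39.9 ± 1.56 CPM (-0.26 ± 0.05 SE, edgeR adjusted p 4.0e-04). These small differences moved with the scaling: with library totals alone the median was -0.03 and 2 genes were called, Ppm1a lower and Skil higher. In all, 5 genes were called in place of 8 without WT replicate 4, WT replicate 5 or mdx/mTR replicate 2.

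Of the 6 genes reported here from a list known to respond to SMAD2 and SMAD3, 5 were called higher and 0 lower. The shares over all tested genes were 25.0% and 23.4%. The median log2 fold change of the 6 was 0.75. Nox4, an NADPH oxidase, went from 2.82 ± 0.508 to 7.90 ± 2.21 CPM (SD, n = 6 libraries per group; 1.49 ± 0.17 SE, edgeR adjusted p 1.9e-05) and Cdkn1a, which encodes the cell cycle inhibitor p21, from 20.4 ± 6.02 to 49.3 ± 12.005 CPM (1.27 ± 0.20 SE, edgeR adjusted p 1.6e-04), both without overlap. Tgfbi (0.87), Ctgf (0.63) and Tgif1 (0.39) were called as well, and Pmepa1 (0.25, edgeR adjusted p 0.145) was not. Leaving out 1 library gave 4 or 5 calls, the 4 without Tgif1, and a median of 0.64 to 0.84. The fibroblast and macrophage markers given above were also higher as lists in mdx/mTR, and their part in these calls was not tested.

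**Figure D4:**
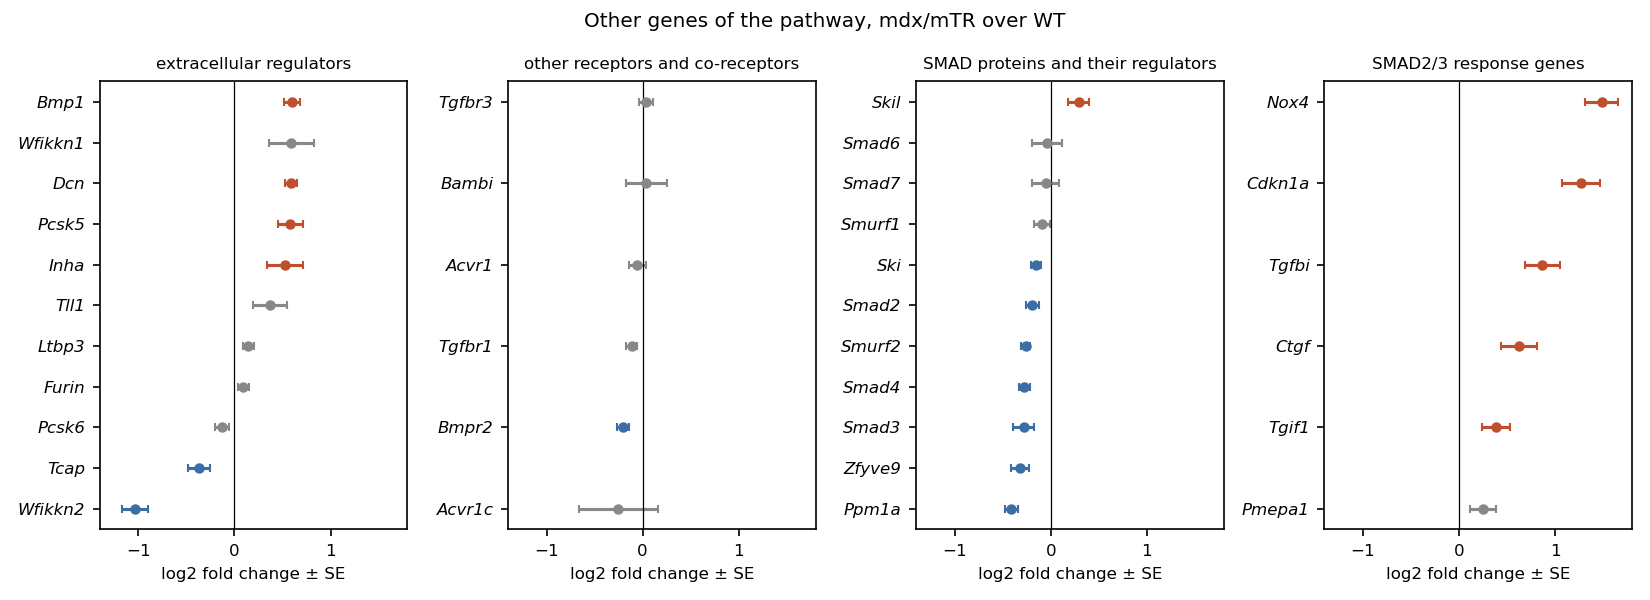
Log2 fold change and its SE (horizontal axes; positive where mdx/mTR was higher) for the tested genes of the 4 lists, ordered by size. Orange marks genes called higher, blue lower and grey those with an adjusted p of 0.05 or more; 5 of 6 response genes lie to the right in orange, and 7 of 11 SMAD proteins and regulators to the left in blue.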

How the data were processed

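Messenger RNA of the tibialis anterior was sequenced in 12 libraries, 6 per strain. The authors deposited whole-number counts per gene symbol. FastQC, STAR, DESeq2 and the build mm10 are named in the submitters' processing notes; counter, annotation and strand handling were not given in the sources used here. A second table deposited by the authors gives the result of their test of the same groups: per the file headers it has a normalized signal averaged over libraries, a log2 fold change, a test score and p-values.

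Counts were tested with edgeR 4.0.16 in R 4.3.3: filterByExpr (13937 genes kept), TMM scaling, group as the only term, quasi-likelihood test, Benjamini-Hochberg over all tested genes at 0.05. The SE is the size of the log2 fold change divided by the square root of F. Of 24421 entries, 5131 had no count. Ratios of counts, with 0.5 added to each, were tested by exact permutation of the group labels (two-sided), adjusted over 5 ratios. Python 3.11.15 with pandas 2.3.3 was used. A count of 3 was taken as the limit that a count of 0 allows, for counting error only, since no molecular identifiers were counted.

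Replicates differed by more than sampling noise (chi-square per degree of freedom 8.87 to 116), so none was counted as a duplicate. On counts simulated for the 13937 genes with 200 changed, edgeR recovered 70.1% of 1.5-fold, 94.0% of 2-fold and 100% of 4-fold changes, with 10 false calls. Apart from the 200, both groups were simulated at WT levels. In the data 6736 genes were called, so these rates may not hold for this comparison. Gene positions and transcript lengths came from GENCODE M21 (GRCm38, the assembly behind mm10). The genes named were the 10 of the axis, the 2 smallest p-values of each pathway list, Dmd and the 3 profiles nearest to Mstn (mean at least 1 CPM); other genes of the lists were named after their values were seen. Of the list of response genes, 1 gene is not reported here, and the list's counts and median are over the other 6. The members and lists were chosen with earlier results of these data known. Alternatives were no filter on low counts, other scalings, DESeq2 1.42.0, limma-voom (limma 3.58.1), a replicate block, each library left out, and, added after seeing the data, thinning to the smallest library total.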

Additional observations from a re-analysis of the deposited data

Results flagged for a closer look

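Single libraries were set apart by Dixon's ratio, the distance of an extreme library from the next one over the whole spread of its 6 libraries, where it passed the critical value for 6 values. This held for 5 of the 54 sets of 6 values examined, and chance would give about 1 in 20, or 2.7. Mstn was 35.01 CPM in WT replicate 6, against 46.6 to 49.4 CPM in the other WT libraries (ratio 0.808). Gdf11 was 6.61 CPM in WT replicate 1, against 4.47 to 5.17 CPM (ratio 0.670), and Inhbb was 2.39 CPM in WT replicate 4, against 1.26 to 1.61 CPM (ratio 0.689). Tgfbr1 was 40.6 CPM in WT replicate 2, against 47.8 to 51.0 CPM (ratio 0.690). Nox4 was 12.01 CPM in mdx/mTR replicate 5, against 6.20 to 8.36 CPM (ratio 0.628). The 5 values fell on 5 different libraries.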

How the results depend on the processing

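The 5 higher and 2 lower calls among the 10 genes of the axis were made again under each of the 20 alternatives, except that Acvr2a was lost with library totals alone, and 7 or 8 of the 10 passed throughout. Mstn ranged from -2.04 to -1.77 on the log2 scale, Fst from 0.93 to 1.17, Inhbb from 1.35 to 1.58 and Inhba from 0.81 to 1.10 (adjusted p up to 0.0308 in the tool of each alternative). Over all genes, 6125 to 7235 passed. With library totals alone, 0 of the other receptors and 2 of the SMAD proteins and regulators passed, and Tgfbr1 turned to 0.0422; with upper quartile scaling, 5 SMAD proteins and regulators passed. Leaving out 1 library gave 1 to 2 other receptors and 5 to 8 SMAD proteins and regulators. A pseudocount of 5 gave a log2 ratio of Inhba to Inhbb of -0.774 (exact permutation, adjusted p 0.0130), and the added 5 is close to the Inhba counts of WT. The groups share replicate numbers, and the labels do not say whether these numbers pair the libraries. Deviations of libraries with the same number correlated from -0.155 to 0.354, with 2 of 6 over 0.1. Of 6 mdx/mTR libraries, 2 correlated best with their own number. These correlations do not settle whether libraries were paired, and the main fit did not pair them. With a replicate block 6420 genes passed, 7 of the 10 axis genes passed again, Mstn was -1.95 and the SMAD list had 7 calls, without Skil. Low counts limit Inhba and Fstl3, with 5 to 12 and 7 to 16 counts in a WT library.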

Other observations

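In the authors' deposited table, 7 of the 10 genes have an adjusted p below 0.05, and these 7 were also called in edgeR, all 7 in the same direction. In edgeR 48.3% of all tested genes were called, and the share over all genes in the authors' deposited table was not counted here. The authors' deposited table gives log2 fold changes of -1.84 for Mstn, 1.32 for Inhbb, 0.98 for Fst, 0.83 for Fstl1, 0.80 for Fstl3, 0.78 for Inhba and -0.26 for Acvr2a. For Acvr1b the authors' deposited table gives 0.34 (adjusted p 0.0670), for Acvr2b 0.24 (adjusted p 0.103) and for Gdf11 -0.21 (adjusted p 0.0850).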
